A study of Mus musculus with 2 samples.

Results

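The smooth muscle contractile genes are described here through the peaks of a miR-9 capture: the actins Acta2 and Actg2, the myosin subunits Myh11 and Myl9, the tropomyosins Tpm1 and Tpm2, and the actin binding proteins Cnn1, Tagln, Cald1 and Vcl. The 10 genes were taken as a list, which was chosen with earlier results of these data known. Their peaks were found by the gene name that the deposited annotation gave to each peak. That name was a listed gene in 22 of 17922 peaks. The peaks came from ChIRP-seq, a sequencing assay of the chromatin bound by an RNA, in the mouse lung fibroblast line MLg (ATCC CCL-206). Biotinylated probes pulled endogenous miR-9 and the DNA fixed to it out of the cell extract, and 1 capture library was set against 1 input library. A library made with control probes was not analysed here, and no replicate check of any peak was possible. Each peak came with a position, a width and an annotation, but its score was 0 throughout the list, so that width was the only size to compare. No expression value was at hand to check the fibroblast label against marker genes or to say how much of each contractile gene the cells made. The study also sequenced total RNA of MLg cells, which was not analysed here.

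Contraction of smooth muscle cells rests on filaments of actin and myosin that slide past each other, and calcium starts it through phosphorylation of the myosin regulatory light chain. Fibroblasts that turn into myofibroblasts take up part of the same gene programme, and alpha smooth muscle actin, the product of Acta2, is the usual marker of that state in lung and other tissues. The genes share a mode of transcription control, in which serum response factor (SRF) binds a short element called the CArG box. Its partners of the myocardin family act through SRF. The mature miRNA that the probes were made against has 23 bases. The probes were antisense to it, so DNA with its letters is also complementary to the probes, and pairing with either was not tested. The miRNA is shown first because stretches of it were looked for in the peaks. Its sequence is as RefSeq lists the mature form, with the seed (bases 2 to 8) in capitals.
miR-9-5p: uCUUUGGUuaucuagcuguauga

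Of the 10 genes, 7 had at least 1 peak of their name (70%, 95% Clopper-Pearson interval 34.8 to 93.3, for counting error only). The interval assumes a random draw of genes, which this list was not, so it is no test against other genes. Among 21000 protein-coding genes with a curated RefSeq mRNA, 35.5% had such a peak, and among the 14479 of them whose length lay within the range of the members, 37.7% had one. Cald1 had 7 peaks, Acta2 and Tpm1 had 4 each, Vcl had 3, Myl9 had 2, and Cnn1 and Actg2 had 1 each. Only 0.633% of the protein-coding genes had more peaks than Cald1, and 2.39% had more than Acta2 and Tpm1. These shares did not take gene length into account, and Cald1, with 176975 bases, was the longest of the 10 genes. Tagln, Myh11 and Tpm2 carried no peak of their name.

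Peaks close to gene starts were counted next. A peak centre lay within 2 kb of a curated start at 6 of the 10 genes, namely Acta2, Cnn1, Myl9, Actg2, Tpm1 and Cald1, against 6.64% of all protein-coding genes. The same 6 genes had a centre within 5 kb, where the share of all genes was 12.2%. Within 1 kb, only Cnn1 and Cald1 had one, against 4.2% of all genes. A peak overlapped the gene body by at least 1 base at 7 members and at 23.5% of all genes. These 7 were not the same as the 7 with a peak of their name, because the Cnn1 peak lay wholly upstream of the gene, and Myh11 was overlapped by a peak that had been given to its neighbour Nde1.

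**Figure D1:**
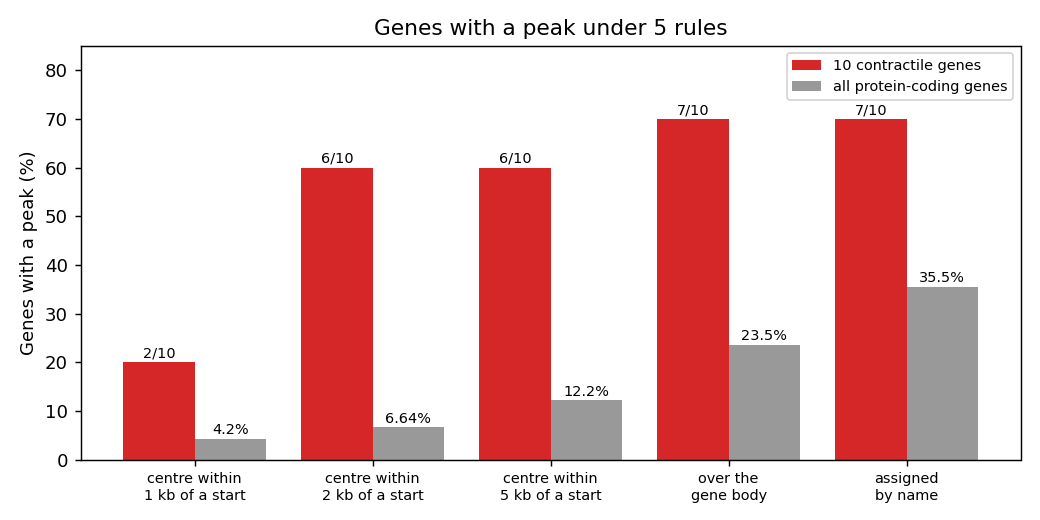
Percentage of genes with a peak (vertical axis) under 5 ways of tying a peak to a gene, for the 10 contractile genes (red, with the number of genes above each bar) and for 21000 protein-coding genes (grey, with the percentage above each bar). Within 2 kb of a start the bars show 6 of 10 genes against 6.64%, and by assigned name 7 of 10 against 35.5%.

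The 22 peaks lay within genes more often than the list as a whole. Introns held 16 of them (72.7%, against 42.1% of all peaks) and first introns held 9 (40.9%, against 13.4%). The annotation placed 2 in a promoter (9.09%, against 3.33%) and 4 between genes (18.2%, against 49.5%). A transposon or simple repeat was named for 5 of the 22 (22.7%), and for 48.7% of all peaks. The median GC content was 44.5% in the members' peaks and 42.2% in all peaks. Peaks near each other in 1 gene share its chromatin, so these shares describe 7 loci and not 22 separate ones.

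**Figure D2:**
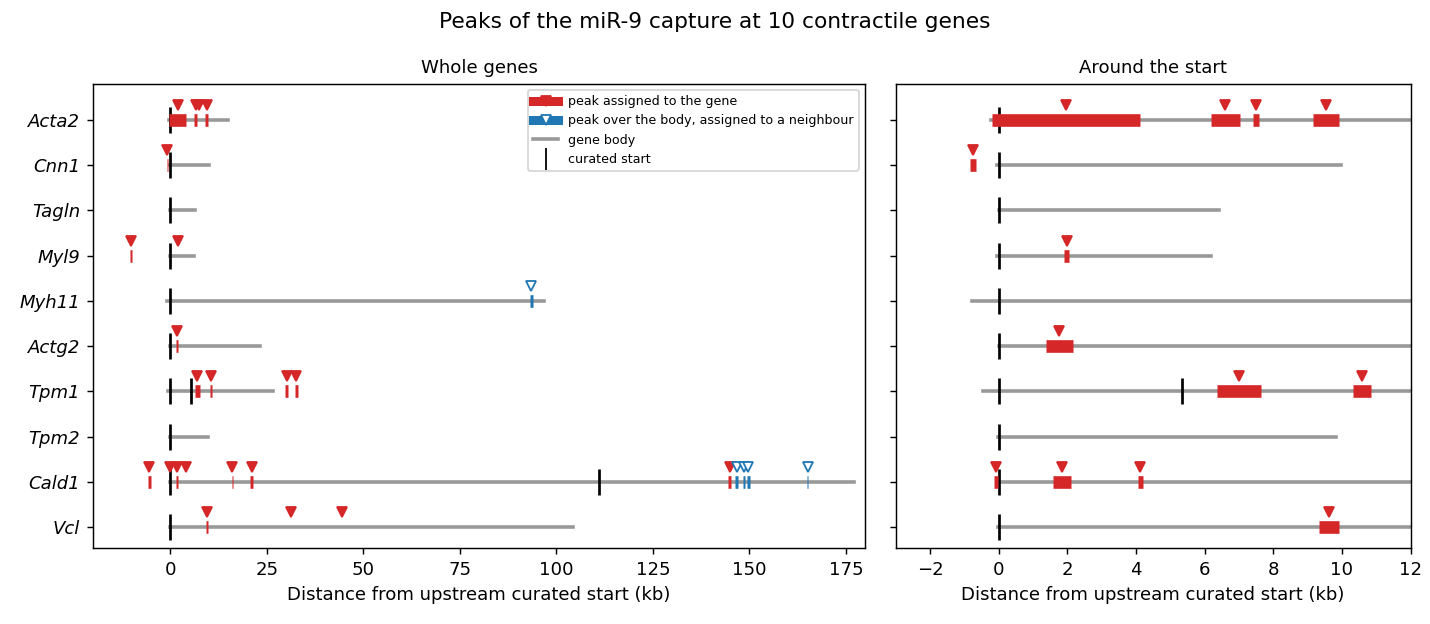
Positions of the peaks along the 10 genes, as distance in kb from the most upstream curated start, over whole genes (left) and around the start (right). Red bars and filled triangles are peaks assigned to the gene, blue bars with open triangles are peaks over the gene body that were assigned to Nde1 or Agbl3, grey lines are gene bodies and black ticks are curated starts. The Acta2 bar of 4310 bases begins 194 bases upstream of the start, and Tagln and Tpm2 are empty.

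Acta2, on the minus strand of chromosome 19 (mm10, 34240336 to 34255585), encodes alpha smooth muscle actin and had the widest peak of the 22. This peak spanned 4310 bases, from chr19:34251258-34255567. In width it ranked 33 of 17922 peaks, 9 of the 7541 peaks in introns, and 3 of the 1489 peaks whose centre was within 2 kb of the start assigned to them. The peak began 194 bases upstream of the start and ended 4115 bases downstream. It took in exon 1 (84 bases), all 2713 bases of intron 1, exon 2 (152 bases), intron 2, exon 3 (129 bases) and the beginning of intron 3.

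Farther along Acta2, 3 more peaks followed. A peak of 865 bases in intron 3 had its centre 6608 bases from the start and covered exon 4 (111 bases) as well. A peak of 173 bases was centred in intron 4 at 7505 bases, and a peak of 762 bases in intron 6 at 9531 bases. The last of these held 146 bases of exon 6 and was annotated to RSINE1, a short interspersed repeat, although 96.4% of its 32-base words occurred once in the assembly.

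The 4 peaks together covered 40.1% of the Acta2 gene body (6110 of 15250 bases). Among the 4927 protein-coding genes with a peak over the body, the median cover was 0.809% and the 95th percentile 9.86%. Acta2 ranked 45 of all genes by this share and 3 of the 13655 genes of at least 10 kb, behind F3 (47.9%), which encodes tissue factor, and Alkbh5 (44.5%), which encodes an RNA demethylase. Cover over the body was used after the positions had been seen. The next member was Tpm1 with 6.68%, followed by Actg2 (3.31%), Myl9 (2.62%), Cald1 (2.52%), Vcl (0.82%) and Myh11 (0.662%, from the Nde1 peak), whereas the bodies of Cnn1, Tagln and Tpm2 had no peak at all.

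**Figure D3:**
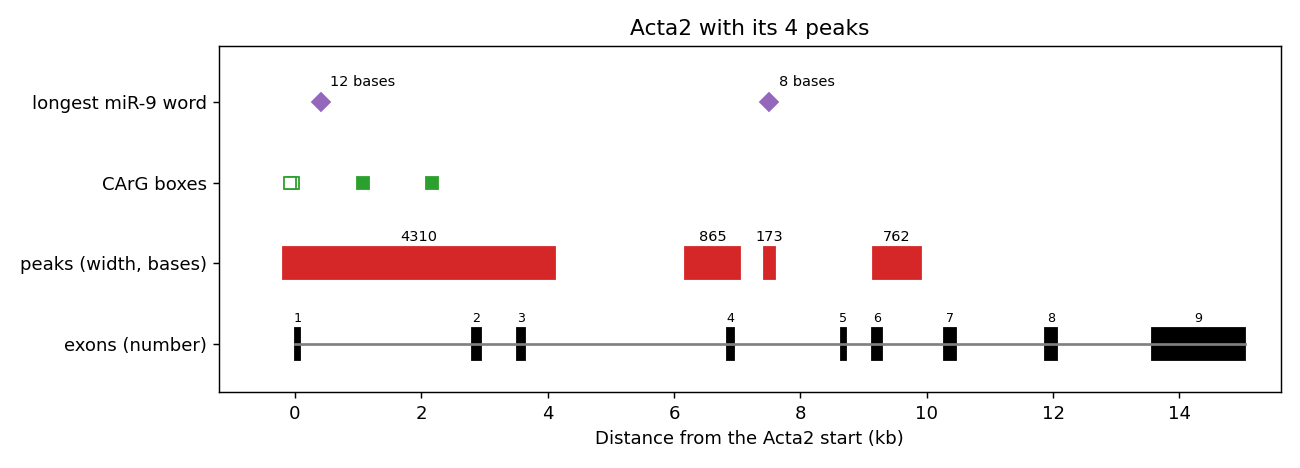
Acta2 along the distance from its start in kb: exons (black boxes with their number), the 4 peaks (red, with width in bases), CArG boxes in the peaks (filled, exact; open, 1 mismatch) and the longest miR-9 word of at least 8 bases in a peak (diamonds). The peak of 4310 bases spans exons 1 to 3 and holds both exact CArG boxes and the 12-base word.

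In intron 1 of Acta2, the peak of 4310 bases contained 12 consecutive bases of miR-9 (bases 11 to 22, with T for U), 405 to 416 bases downstream of the start on the strand of the gene. A word this long was present in 153 of all peaks (0.854%). Among the 48 peaks within 25% of the same width, this one included, 2 had it (4.17%). The word was 1550 bases from the peak centre. A second word of 8 bases (bases 12 to 19) began 3698 bases from the start. The peak of 173 bases had an 8-base word (bases 11 to 18) on the opposite strand, 4 bases from the peak centre, and 11.4% of peaks of like width had a word at least as long.
The stretches below show both Acta2 sites 5′ to 3′ on the strand of the gene (minus), from RefSeq GRCm38.p6, with the letters shared with miR-9 or its complement in capitals.
Acta2 intron 1, chr19:34254948-34254977: ggggtggagTCTAGCTGTATGtggtaaatt
Acta2 intron 4, chr19:34247850-34247879: gtccagtgaacCAGCTAGAgagttctgatg

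The same peak at the Acta2 start held 2 exact CArG boxes, at 1076 to 1085 and at 2171 to 2180 bases downstream of the start, both in intron 1. An exact box was found in 427 of all peaks (2.38%) and in 22.9% of the 48 peaks of like width. Upstream of the start, 2 further boxes deviated from the consensus at 1 position of the central A and T stretch, at -84 to -75 and at -34 to -25. With 1 such mismatch allowed, 83.3% of the peaks of like width had a match. In the table of promoters from 250 bases before to 50 after each start, 1.63% of 32851 promoters had an exact box and 9.98% a box with up to 1 mismatch. All boxes were searched on both strands, and a match is a stretch of letters whose occupancy by SRF was not measured here.
The Acta2 boxes are printed in capitals, on the strand of the gene (minus), to show where the wide peak meets the SRF element.
Acta2 upstream, chr19:34255438-34255467: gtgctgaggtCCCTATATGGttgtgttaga
Acta2 upstream, chr19:34255388-34255417: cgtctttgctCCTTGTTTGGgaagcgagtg
Acta2 intron 1, chr19:34254278-34254307: gtgtgttttaCCTAATTAGGaaatgctccc
Acta2 intron 1, chr19:34253183-34253212: atttcaaacaCCATATTTGGaaatttctat

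Actg2 encodes gamma smooth muscle actin, the isoform of visceral muscle, and had a single peak of 773 bases in its first intron (chr6:83534094-83534866, gene on the minus strand). The peak centre was 1771 bases downstream of the start, and 93% of all peaks were narrower. Like Acta2, the gene thus had a wide peak in intron 1 with its centre under 2 kb from the start, but the Actg2 peak began 1385 bases inside the gene and touched no exon. A 9-base word (bases 14 to 22 of miR-9) lay on the opposite strand, 272 bases from the peak centre, and 22.5% of peaks of like width had a word of that length or longer.
Actg2 intron 1, chr6:83534738-83534767, strand of the gene (minus), word in capitals: tgcatacaccaCATACAGCTgtctcaataa

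Of the myosin genes, Myl9 had peaks and Myh11 had none of its name. Myl9 encodes the regulatory light chain that is phosphorylated when smooth muscle contracts. A narrow peak of 164 bases was in its first intron (chr2:156777368-156777531) with the centre 1985 bases downstream of the start. A wider one of 544 bases lay between genes, upstream of the start with its centre at -10090. The longest words in these peaks had 7 bases, and 32.6% and 72.5% of peaks of like width held a word at least as long. Neither peak contained an exact CArG box, whereas the promoter of Myl9, outside both peaks, held 1.

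Myh11 encodes the smooth muscle myosin heavy chain, the member most restricted to differentiated smooth muscle. Its gene on chromosome 16 (14194527 to 14292188, minus strand) was overlapped by 1 peak of 647 bases, at 14197562 to 14198208. The centre of that peak lay 93523 bases downstream of the Myh11 start, near the 3′ end of the gene, and the annotation gave it to Nde1, an overlapping gene with a role in mitosis. No other peak was nearer to the Myh11 start.

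The tropomyosins lie along the actin filament and gate the access of myosin. Tpm1 has 2 groups of curated starts, 5342 bases apart, and all 4 of its peaks were measured from the downstream one. The widest had 1271 bases (chr9:67041576-67042846, minus strand), ranked 372 of all peaks and was annotated to intron 2, with its centre 1660 bases from the internal start. Another of 537 bases was in the same intron at 5252 bases. The remaining 2, of 613 and 557 bases, fell beyond the 3′ end of the gene at 24816 and 27358 bases, and both were annotated to repeats, an MTD element and an RSINE1 element. Tpm2, which encodes beta tropomyosin, had no peak, and the closest to its start on chromosome 4 belonged to Npr2, a natriuretic peptide receptor gene, at a distance of 86325 bases.

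In Tpm1, 2 peaks held words from the seed end of miR-9 on the strand of the gene. Among words of at least 8 bases, those of the other members came from the 3′ part of the miRNA. The peak of 1271 bases had bases 2 to 9 and the peak of 613 bases had bases 3 to 10. Words of this length or longer were present in 52.6% and 38.6% of peaks of like width. The peak of 613 bases held 2 exact CArG boxes as well, whereas 3.36% of peaks of like width held any, and the boxes lay between 24958 and 25117 bases downstream of the start.
The Tpm1 stretches are given on the strand of the gene (minus), with the miR-9 word in capitals in the first pair and the CArG box in the second pair.
Tpm1 intron 2, chr9:67042412-67042441: aactgttggagCTTTGGTTccggtccctat
Tpm1 downstream, chr9:67018926-67018955: cctaggctgctTTTGGTTAgtgcttatcac
Tpm1 downstream, chr9:67018894-67018923: cagcagaaaaCCAAATTAGGactccataga
Tpm1 downstream, chr9:67018744-67018773: agcccctccaCCTTTTTTGGgttttttgtt

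Cald1 encodes caldesmon, which holds back the myosin ATPase on actin, and had the highest number of peaks. The gene spans 176975 bases on the plus strand of chromosome 6 and has 2 curated starts, 110940 bases apart. A narrow peak of 115 bases (chr6:34598365-34598479) ended 25 bases before the upstream start. By its centre, at -82, this peak was the closest of all 22 to a start. Downstream of it, 4 peaks in the same first intron had centres at 1847, 4128, 16083 and 21075 bases, with widths of 516, 151, 140 and 599 bases. A peak of 707 bases lay upstream with its centre at -5379, in a HAL1 repeat. The last one, of 793 bases, was in intron 4, centred 33930 bases from the downstream start. Over the body of Cald1, 4 more peaks of 86 to 952 bases had been assigned to Agbl3, a neighbouring gene.

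The peak of 793 bases in Cald1 held a 10-base word (bases 10 to 19 of miR-9) on the strand of the gene, and 12.1% of peaks of like width held a word at least as long. The peak of 151 bases was annotated to a simple repeat of GA, and the assembly held 73.3% of its 32-base words at 5 or more places, a share that no other of the 22 peaks reached. The sequences of the 10-base word (in capitals) and of the middle of the promoter peak are on the plus strand.
Cald1 intron 4, chr6:34743159-34743188: cctttcctggATCTAGCTGTtagtgagtgt
Cald1 promoter, chr6:34598408-34598437: ggctgcctattagaaaaactacaggacaat

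Cnn1 encodes calponin, an actin binding protein of differentiated smooth muscle, and had 1 narrow peak of 169 bases (chr9:22098414-22098582, plus strand), from -839 to -671 relative to its start. No miR-9 word of 7 bases or more occurred in it. Through its middle ran a stretch of alternating TG and then GA, and 47.1% of its 32-base words were found at 5 or more places in the assembly. A read from such a stretch can come from another copy, and the part of this in the Cnn1 peak was not tested.
Cnn1 promoter, chr9:22098484-22098513, plus strand: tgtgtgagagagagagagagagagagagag

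Tagln encodes transgelin (SM22), another actin binding protein of the same programme, and had no peak. The closest to its start was a peak of 632 bases in Sik3, a kinase gene, 80976 bases away. Tagln lies on chromosome 9, as do Cnn1 and Tpm1, which had peaks of their name.

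Vcl encodes vinculin, which ties actin filaments to focal adhesions, and was the one gene with peaks that had none within 5 kb of its start. Its 3 peaks were in introns 1 and 2, centred 9631, 31343 and 44552 bases downstream of the start, with widths of 592, 123 and 140 bases. The first of them held a 10-base word, the last 10 bases of miR-9 (14 to 23) on the opposite strand, 26 bases from the peak centre. A word of this length or longer was found in 8.29% of peaks of like width. The promoter of Vcl held 1 exact CArG box, outside the peaks. No exact box was in the promoters of Acta2, Cnn1, Tpm1, Tpm2 and Cald1. With 1 mismatch allowed, Acta2 alone of these had a match. The promoters of Tagln, Myh11 and Actg2 were not among those searched.
Vcl intron 1, chr14:20938989-20939018, plus strand, word in capitals: acactttatcTCATACAGCTccatatttta

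Placed side by side, 5 members had a peak centred in a narrow band downstream of a start: Tpm1 at 1660, Actg2 at 1771, Cald1 at 1847, Acta2 at 1961 and Myl9 at 1985 bases. Between 1500 and 2000 bases downstream lay 22.7% of the members' peaks and 185 of all peaks (1.03%). Of the 1489 peaks within 2 kb of a start, this band held 12.4%. No peak of a member was centred in the first 1500 bases downstream. The band was chosen after the distances had been seen, and the widths of the 5 peaks, from 164 to 4310 bases, place their near edges at different distances from the start. The Acta2 peak alone ran across the start itself.

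By width, the whole list fell into 2 classes, below and above 250 bases. Per the methods, peaks were called with different settings of the read shift and the lists were then merged. Whether these settings gave the 2 classes was not tested, so a class is not a kind of binding. Of the 22 peaks, 8 were narrow (115 to 173 bases) and 14 were wide (516 to 4310 bases, median 660 bases). The share of wide peaks was 63.6% in the members and 52.7% in all peaks, with medians over both classes of 550 and 408 bases. All peaks of Actg2 and Tpm1 were wide and the single Cnn1 peak was narrow, while Acta2, Myl9, Cald1 and Vcl had both. As peaks closer than about 100 bases are absent from the list (the smallest gap was 101 bases), a wide entry can be a union of several called regions.

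**Figure D4:**
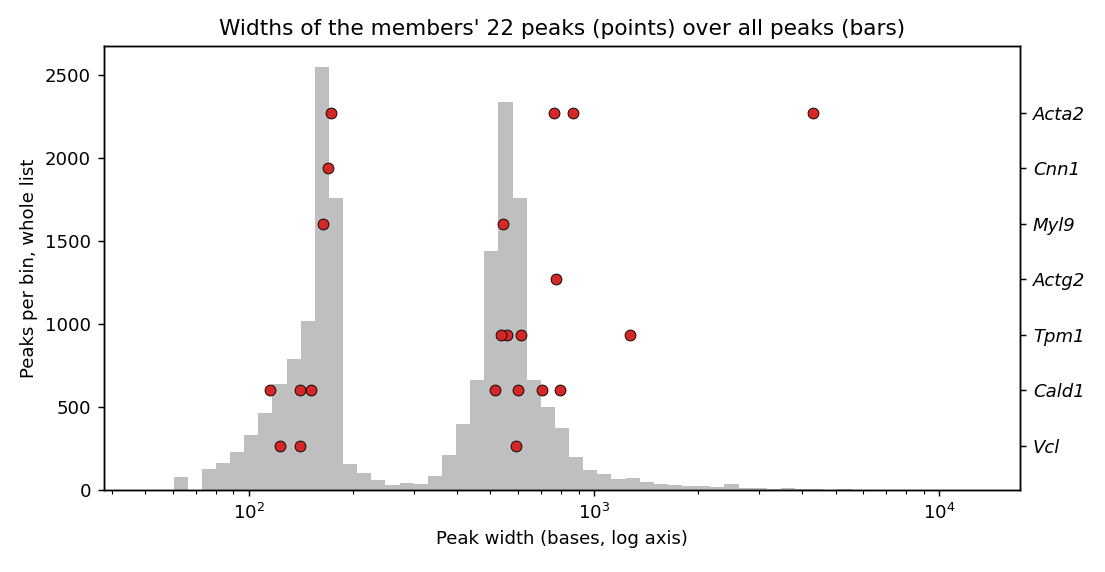
Widths of the 22 peaks (red points, in rows by gene, right axis) above the histogram of the widths of all 17922 peaks (grey bars, number per bin, left axis), on a log axis in bases. The members occupy both classes of width, and 1 Acta2 peak of 4310 bases is far to the right.

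Words of miR-9 at a length of 7 bases were found in 54.5% of the members' peaks and in 54.3% of all peaks, and a word of 8 bases in 7 of the 22 (31.8%, against 26.4%). At 10 bases the shares were 13.6% (3 peaks, at Acta2, Cald1 and Vcl) and 6.04%. The words at these 3 genes and at Actg2 overlapped on the same part of the miRNA, from bases 14 to 19, with the letters of miR-9 on the strand of the gene at Acta2 and Cald1 and on the opposite strand at Actg2 and Vcl. An exact CArG box was in 2 of the 22 peaks (9.09%, against 2.38%), and with 1 mismatch allowed in 3 (13.6%, against 13.5%). The motif of a G-quadruplex, with 4 runs of at least 3 G parted by at most 7 bases and searched on both strands, was in none of the 22 peaks and in 5.65% of all peaks. With 22 peaks, shares of this kind shift by several percentage points for each peak.

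The chromosomes differed in their density of peaks. Chromosomes 19 and 6, with Acta2, Actg2 and Cald1, had 11.4 peaks per Mb each, against 6.58 over the assembly, and chromosomes 9 and 2 had 6.13 each. Chromosome 4 with Tpm2 had 4.55, chromosome 16 with Myh11 had 3.25 and chromosome 14 with Vcl, which had 3 peaks, had 3.36. On chromosome 9, Tpm1 had 4 peaks and Tagln none. Peaks within 100 kb of any curated start of a gene were counted, its own peaks included. Cald1 had 17 and Acta2 had 9, where the median over all genes was 1 and the upper quartile 3. The Cald1 window was wider than that of Acta2, because Cald1 has 2 starts, 110940 bases apart, and Acta2 has 1. Tagln and Tpm2 had 2 and Myh11 had 1. Whether copy number or input coverage of these chromosomes in the line took part in the counts was not tested.

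The peaks of related gene groups are given to place the 10 members. Of 24 further structural genes of smooth muscle and stress fibres, 15 had a peak of their name (against 35.5% of all genes) and 2 had one within 2 kb of a start (against 6.64%), Myl12a (at 203 bases) and Myh9 (at -1848 bases). Farther from the start, Zyx, which encodes the focal adhesion protein zyxin, had a peak of 3395 bases centred 3586 bases into the gene, rank 59 of all by width, and peaks covered 32.9% of its body. Csrp1 and Cnn2 had peaks of 798 and 736 bases in introns. Of the 4 other actin genes, Actb had a peak of 1916 bases over its 3′ end, and a peak 1109 bases from the Actg1 start had been assigned to the miRNA gene Mir6935.

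The control of contraction and of its transcription was covered by 2 more lists, for which the same shares of all genes, 35.5% and 6.64%, are the background. Of 12 genes for kinases, phosphatase subunits and GTPases that act on the myosin light chain, 6 had a peak of their name and none had one within 2 kb of a start, with the widest at Prkg1, Arhgef12 and Ppp1r12a. Of 11 genes for SRF and other factors of the contractile programme, 7 had a peak of their name, and Gata6 alone had one within 2 kb, of 1051 bases at -95. The widest of the others belonged to Mkx, Klf4 and Mrtfa.

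Of 25 contractile genes of striated muscle, 6 had a peak of their name (24%, against 35.5% of all genes), the widest being at Tnnt2, Ttn and Myh1. None had one within 2 kb of a start, where the share of all genes was 6.64%, so a short list can lack such a peak. Among marker genes of other lung cells, 4 of 10 for epithelium (such as Krt8, Foxj1 and Sftpb) and 2 of 8 for endothelium (Kdr and Cdh5) had a peak of their name, none of them within 2 kb. The same shares of all genes are the background for these markers. The lists differ in gene length, with a median of 19296 bases for the members, 29662 for the structural genes, 105574 for the genes of contraction control, 69814 for the transcription list, 22636 for the striated muscle genes, 53658 for the endothelial and 6214 for the epithelial markers, and 3940 for the other actins, and none of these counts was tested.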

How the data were processed

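ChIRP-seq of miR-9 was represented by 1 merged peak list, called over the input. Per the methods, the authors trimmed reads (Trimmomatic, version 0.36 in the submitters' processing notes), aligned them with Bowtie2 to mm10, called peaks with MACS, merged them with bedtools and annotated them with HOMER. In the deposited list the score was 0 for every peak, so the depth was unknown here and widths and positions (counted from 1) were used. The list also gave distances to the start. The annotation of 8093 peaks was split over fields and was joined again, and 64 peaks had no gene name.

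The members and gene lists were chosen with earlier results of these data known. All 10 members are named, and from each other list the genes with a peak centre within 2 kb of a start and the 3 with the widest peak farther away. Gene models and sequences were those of RefSeq GRCm38.p6. For 17801 peaks the named transcript was found there, and the distance was within 1 base of the deposited one in 96.7% of them and in all 22 of the members. The promoter table held Acta2, Cnn1, Myl9, Tpm1, Tpm2, Vcl and Cald1. Peaks of like width were those within 25% either way. Word and motif searches were tested on simulated sequences. Calculations used Python 3.11.15, NumPy 2.4.6 and SciPy 1.17.1. No test was run, since the design had 1 capture library.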

Additional observations from a re-analysis of the deposited data

How the results depend on the processing

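The number of genes with a peak stayed at 7 with a peak over the gene body, with most of the peak inside it, and without repeats or high-copy peaks, and was 6 with wide peaks alone. With a centre within 2 kb or 5 kb (6.64% and 12.2% of all genes) the number of genes was also 6, and the peaks numbered 7 and 8. Within 1 kb (4.2% of all genes), a limit chosen after seeing the data, 2 genes and 2 peaks were left. With wide peaks alone, 14 peaks remained. Words of 7, 9, 10, 11 and 12 bases were in 12, 4, 3, 1 and 1 of the 22 peaks, where 8 bases gave 7. Distances from RefSeq starts equalled the deposited ones. No paired analysis was possible because the design had 1 capture library. Without a score, read counts or replicates, no error could be set on any peak.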
